A study of Mus musculus with 6 samples.

Results

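The 75 genes described here are the mouse transporters and pumps that set the gradients of sodium, potassium, calcium, chloride, protons and zinc across membranes. They are defined by gene symbol, as every gene in the tables named Slc4a, Slc8a, Slc9a, Slc12a, Slc24a, Slc30a or Slc39a with a number, or named as a subunit of the Na,K-ATPase (Atp1a, Atp1b), a SERCA pump (Atp2a) or a PMCA pump (Atp2b). They are 75 of 21667 named genes. The study sequenced polyA RNA of somatosensory cortex taken from 3 Mef2c cKO mice and 3 controls, all male and of a mixed SVeV-129 and C57BL/6J background, to find the genes whose expression changes when the transcription factor MEF2C is lost early in forebrain development. The cKO mice were Mef2c fl/fl and carried 1 copy of Cre recombinase inserted into the Emx1 gene. The controls were Cre-negative littermates, also Mef2c fl/fl. Replicate 1 of each genotype was 14 weeks old and replicates 2 and 3 were 12 weeks old. Emx1-Cre acts in the excitatory neurons of neocortex and hippocampus and in some forebrain glia, and the tissue was sequenced whole, so that interneurons and other cells outside that lineage keep Mef2c in the cKO samples.

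The Na,K-ATPase exports sodium and imports potassium at the cost of ATP, and the gradients it builds drive most of the other carriers: NCX and NCKX exchangers remove calcium against sodium, NHE exchangers remove protons against sodium, and NKCC1 and KCC2 load and extrude chloride. In mature neurons KCC2 (Slc12a5) keeps internal chloride low, which makes GABA-A receptor currents inhibitory. PMCA and SERCA pumps clear calcium to the outside and into the endoplasmic reticulum. ZnT proteins move zinc out of the cytosol, ZnT3 (Slc30a3) into the synaptic vesicles of cortical glutamatergic neurons, and ZIP proteins move zinc into the cytosol.

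Levels are given as CPM, the reads of a gene per 1000000 reads of its mouse, computed from whole read counts recovered from the deposited RPKM values. Each mouse had between 19326365 and 54128334 reads, and all 75 members had a count in every mouse. The recovery mattered for these genes because the length by which the deposited values were divided differed between mice for the same gene. For Slc12a5 the deposited RPKM was 15.2, 115 and 13.8 in control replicates 1, 2 and 3 and 8.44, 4.21 and 4.12 in cKO replicates 1, 2 and 3, with control replicate 2 far above the other controls. Over the 62 tested members, the SD of the log2 ratio within a genotype was 2.73 in the deposited RPKM and 0.289 in CPM. Over 14625 genes, log2 CPM correlated at 0.992 to 0.995 within genotypes and at 0.978 to 0.981 between them.

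The targeted gene itself had more reads in the cKO mice. Mef2c was at 800, 772 and 800 CPM in the controls and 1231, 1276 and 1468 CPM in the cKO mice, a log2 fold change of 0.74 ± 0.075 (SE, limma, adjusted p = 1.8e-04). Counts over the whole gene include exons outside the floxed part, so this value does not check the deletion. The paper reports, from Western blots, that MEF2C protein was strongly reduced in cortex and hippocampus of the cKO mice. Emx1, the gene into which Cre was inserted, had 16.5, 20.3 and 18.8 CPM in the controls and 5.71, 4.97 and 5.10 CPM in the cKO mice (−1.79 on the log2 scale), every cKO mouse below every control.

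A gene was tested when its CPM exceeded 0.5 in all 3 controls or in all 3 cKO mice, and it passed when limma gave a Benjamini-Hochberg adjusted p under 0.05 over all genes tested and a log2 fold change beyond 0.3 in either direction. "Rose" and "fell" are used only of genes that passed both. Fold changes are of cKO over control on the log2(CPM + 0.1) scale, with their standard errors, and p-values measure the spread between these 3 mice a genotype. Of the 75 members 62 were tested and 13 passed, which is 21.0% of those tested, beside 13.7% of all 14625 genes tested. Of the 62, 7 (11.3%) fell, beside 7.77% of all genes, and 6 (9.68%) rose, beside 5.88%. The median log2 fold change of the tested members was 0.00, and that of all genes was 0.01. In all 13 the mice of the genotypes did not overlap. Without regard to the cut-offs, 27 of the 62 tested members (43.5%) did not overlap, beside 33.8% of all genes, 14 with the cKO mice lower, beside 17.5%, and 13 with them higher, beside 16.3%.

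Described here are 11 of the 13 members that passed. Those that fell were Atp2b2, Slc12a5, Slc24a3, Slc30a4, Slc9a3 and Slc9a5. Those that rose were Slc24a2, Slc24a4, Slc30a3, Slc9a2 and Slc9a4. A pattern of one member falling while another of its family rose was present among the NCKX exchangers, the NHE exchangers and the ZnT exporters. No member passed among the Na,K-ATPase beta subunits, the SERCA pumps, the NCX exchangers, the bicarbonate transporters or the ZIP importers, by limma with a variance trend or with voom weights. At an unadjusted p under 0.05 these families held 0 of 3, 0 of 2, 1 of 3, 2 of 7 and 1 of 12 tested members in turn, by either fit. Because the tissue is a mixture, fewer cells of a type and less RNA per cell cannot be told apart in any of these values.

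**Figure D1:**
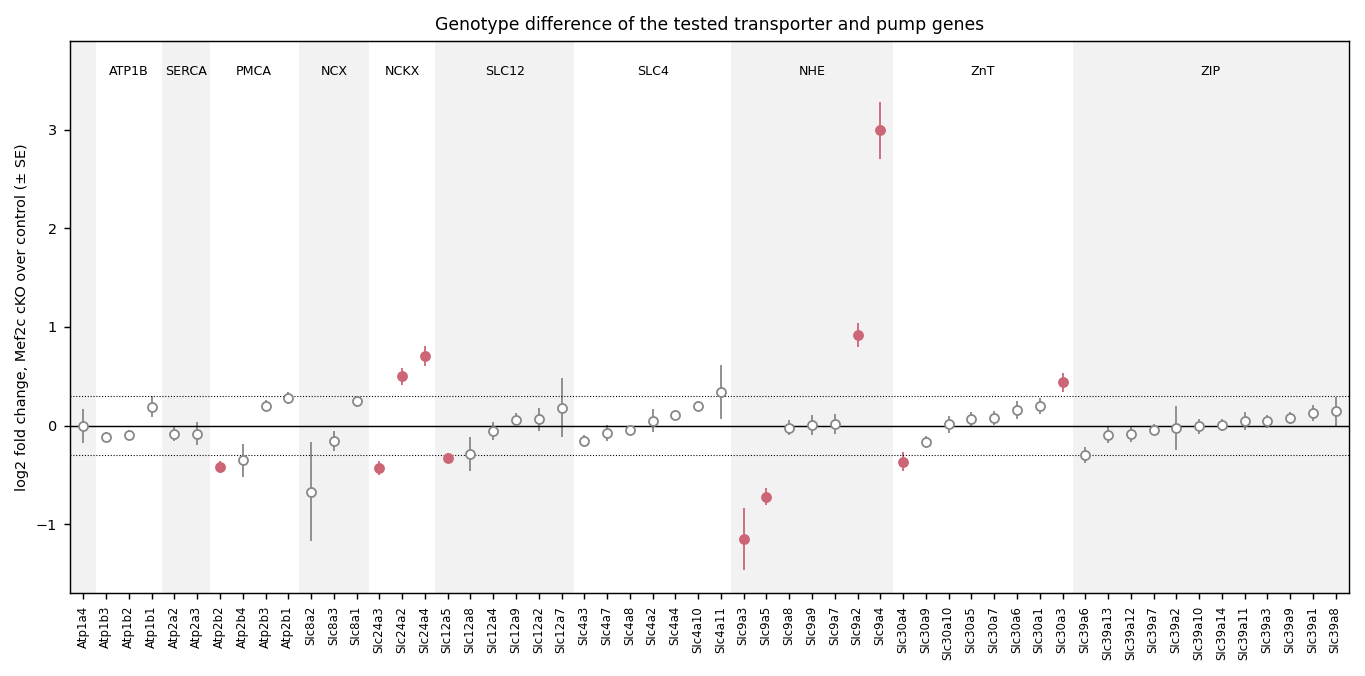
Log2 fold change of cKO over control (y axis, with its standard error) for 56 of the 62 tested members, ordered by size within each family. Filled points are the 11 of them past the cut-offs and dotted lines mark changes of 0.3. Most members lie between the lines, and Slc9a4 stands highest at 2.99.

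Levels per length spanned a wide range across the families. Dividing CPM by the length of the exons in kb, Atp1b1, the main beta subunit of brain, stood at 649 CPM per kb in control mice. The SERCA pump Atp2a2 stood at 221. Among the exchangers and cotransporters Slc12a5 had 87.7 CPM per kb, Slc8a1 86.4 and Slc24a2 60.5, and the leading genes of the zinc families were Slc39a10 with 57.2 and Slc30a3 with 53.3. The leading bicarbonate transporter, Slc4a10, had 44.9.

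**Figure D2:**
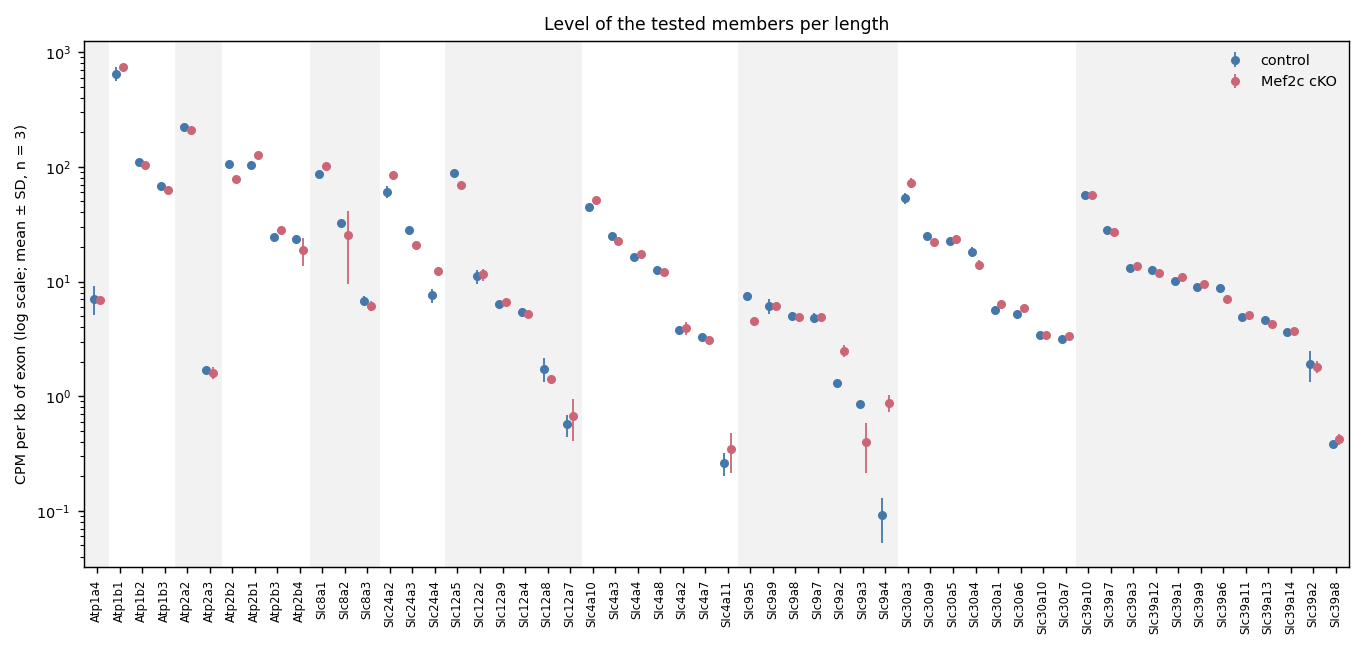
Level of 56 of the 62 tested members in CPM per kb of exon on a log scale, by family and in falling order of the control level (mean ± SD, n = 3 mice a genotype). The spread between mice is small against the range of the levels, apart from the cKO value of Slc8a2 and a few genes near or below 1 CPM per kb.

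None of the 3 tested beta subunits of the Na,K-ATPase, which help the pump to reach the membrane, passed. Atp1b1 had 1681, 1722 and 1315 CPM in the controls and 1715, 1736 and 1899 CPM in the cKO mice, with control replicate 3 below the rest and a log2 fold change of 0.19 ± 0.105 (SE, adjusted p = 0.28). Atp1b2, of astrocytes, was at 447 to 452 CPM in the controls and 418 to 425 CPM in the cKO mice, without overlap, and did not pass (−0.10, adjusted p = 0.24). Atp1b4, which in placental mammals serves in muscle nuclei and not as a pump subunit, had no read in any mouse, and 3 reads, the limit that a count of 0 allows, are 0.055 to 0.155 CPM at these depths, for counting error only. Of the FXYD and other Na,K-ATPase partners, 9 of 12 were tested and none passed, with 0 at an unadjusted p under 0.05 by limma (1 with voom weights). Their log2 fold changes ran from −0.21 to 0.19.

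**Figure D3:**
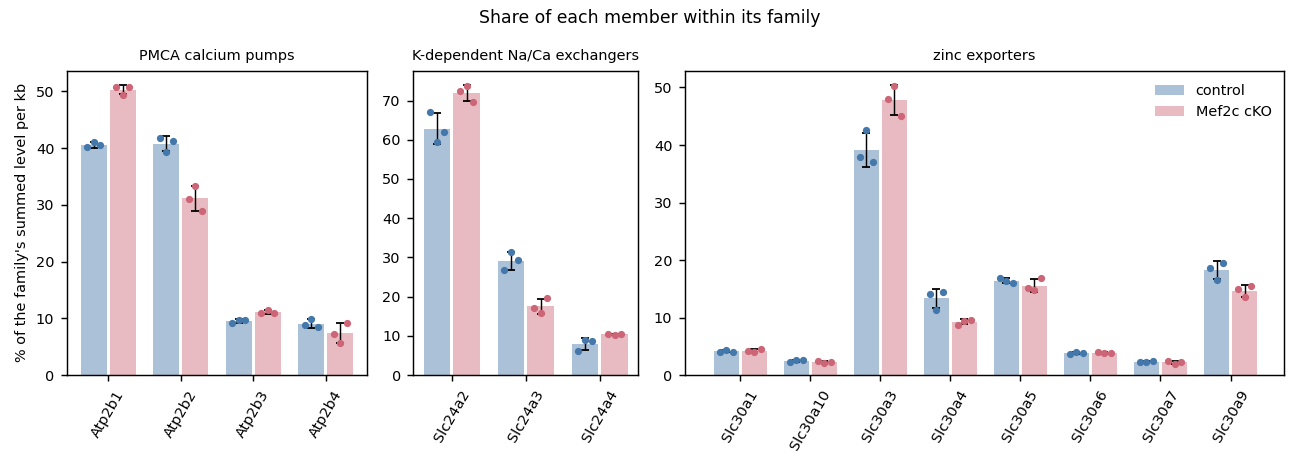
Share of each tested member in the summed level per kb of its family, in percent, for the PMCA pumps, the NCKX exchangers and the ZnT exporters. Bars are means, error bars SD and points the 3 mice of each genotype. The points of the genotypes stand apart for Atp2b1, Atp2b2 and Atp2b3, for Slc24a2, Slc24a3 and Slc24a4, and for Slc30a3, Slc30a4 and Slc30a9, and overlap for the other members drawn.

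Of the calcium pumps of the plasma membrane, Atp2b2 (PMCA2), a fast pump of neurons, fell. It had 1183, 1093 and 1127 CPM in the controls and 823, 892 and 832 CPM in the cKO mice, and every cKO mouse was below every control. The log2 fold change was −0.42 ± 0.062 (SE, adjusted p = 0.0016), a fall of 25.2%. Atp2b1 (PMCA1), the most widely expressed of the pumps, went the other way, with 754, 759 and 733 CPM in the controls and 892, 874 and 967 CPM in the cKO mice. Its adjusted p was 0.012 and its log2 fold change of 0.28 ± 0.061 stayed just inside the limit of 0.3. Atp2b3 (PMCA3) likewise had an adjusted p of 0.037 with a log2 fold change of 0.20. Atp2b4 (PMCA4) spread widely among the cKO mice, at 162, 128 and 220 CPM against 211, 232 and 193 CPM in the controls, and did not pass (−0.35 ± 0.166, adjusted p = 0.20).

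Per length, Atp2b1 and Atp2b2 shared the first place in the controls, with 40.6% ± 0.48 (SD) and 40.8% ± 1.33 of the summed PMCA level. In the cKO mice the shares were 50.3% ± 0.82 and 31.1% ± 2.21. The family's sum was 258 ± 4.8 CPM per kb in the controls and 253 ± 11.1 in the cKO mice. The pump of the endoplasmic reticulum that nearly all cells use, Atp2a2 (SERCA2), held 99.2% of the SERCA level in both genotypes. It had 1339, 1239 and 1186 CPM in the controls and 1148, 1167 and 1232 CPM in the cKO mice, which overlapped (−0.09 ± 0.067, SE, adjusted p = 0.46).

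All 3 tested NCKX exchangers, which use the potassium gradient as well as that of sodium to extrude calcium, passed, and not in one direction. Slc24a2 (NCKX2), the main one in cortical neurons, had 942, 747 and 799 CPM in the controls and 1205, 1201 and 1095 CPM in the cKO mice. Each cKO mouse exceeded every control (log2 fold change 0.50 ± 0.090, SE, adjusted p = 0.0048). Slc24a4 (NCKX4) was at 28.6, 37.3 and 37.1 CPM in the controls and at 57.5, 55.0 and 54.7 CPM in the cKO mice, again without overlap (0.71 ± 0.102, adjusted p = 0.0013). Control replicate 1, the 14-week-old control, was the lowest of the 6 mice. Slc24a3 (NCKX3) fell, from 125, 131 and 126 CPM in the controls to 95.1, 86.7 and 103 CPM in the cKO mice (−0.43 ± 0.070, adjusted p = 0.0027). Its share of the family's level per kb was 29.1% ± 2.32 (SD) in the controls and 17.6% ± 1.86 in the cKO mice, while Slc24a2 held 62.9% ± 3.85 and 71.9% ± 2.04. The remaining members, Slc24a1 of rod photoreceptors and Slc24a5 of pigment cells, were below the limit for testing.

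The NCX exchangers, which work without potassium, gave no call. Slc8a1 (NCX1) had 272, 264 and 259 CPM in the controls and 329, 297 and 319 CPM in the cKO mice, with no overlap and an adjusted p of 0.018, at a log2 fold change of 0.25 ± 0.058 that is within the limit of 0.3. Slc8a3 (NCX3) overlapped between genotypes (−0.16, adjusted p = 0.35). Slc8a2 (NCX2) was decided by a single mouse. It had 142, 145 and 139 CPM in the controls and 159, 145 and 31.0 CPM in the cKO mice. The low value, cKO replicate 3, rests on 1678 reads. The log2 fold change was −0.67 ± 0.506 (SE, adjusted p = 0.44) with all mice and 0.09 (adjusted p = 0.42) without cKO replicate 3. Slc8a2 in cKO replicate 3 was −2.29 on the log2 scale from the mean of the other cKO mice, and the next lowest member in that mouse, Slc8a3, was at −0.22. The cause was not tested.

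Slc12a5 (KCC2), the chloride extruder of neurons, fell by a small amount that was large against the spread within each genotype. It had 616, 640 and 633 CPM in the controls and 504, 482 and 518 CPM in the cKO mice. The lowest control was well above the highest cKO mouse. The log2 fold change was −0.33 ± 0.055 (SE, adjusted p = 0.0032), a fall of 20.3%. That size is near the limit of 0.3, and without cKO replicate 2 it was −0.30, just inside. An annotated transcript, Gm11459, shares 188 exon bases with Slc12a5 on the same strand, so reads there could come from either.

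The promoter of Slc12a5 is shown because it was the 1 member promoter that held a match to the MEF2 motif, the AT-rich element that MEF2 proteins bind. RefSeq promoters of GRCm38.p6 were found for 56 of the 75 members and for 9 of the 13 that passed, and the 250 bases before each annotated start were searched on both strands. The window at the second of the annotated starts of Slc12a5, chr2:164967738-164967987 on the plus strand of GRCm38.p6, is written 5′ to 3′ with the match in capitals.
Slc12a5: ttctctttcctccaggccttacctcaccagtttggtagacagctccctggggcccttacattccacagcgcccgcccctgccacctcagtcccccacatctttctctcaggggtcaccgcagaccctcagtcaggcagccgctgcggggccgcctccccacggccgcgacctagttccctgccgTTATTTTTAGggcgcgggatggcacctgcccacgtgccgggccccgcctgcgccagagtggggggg
The match lies 66 to 57 bases before that start, and the window at the other start, chr2:164960596-164960845, holds none. Counted per gene over all its starts, matches were no more frequent among the members, 1 of 56 (1.79%), than among the 11112 tested genes with a promoter (2.08%). Counted per single window, 2.92% of the 32851 promoters of all genes held a match, which is not the same unit. A match of letters is a description of this window and does not show that MEF2C binds there.

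The chloride loader Slc12a2 (NKCC1) overlapped between genotypes, at 74.1, 61.9 and 81.3 CPM in the controls and 65.4, 78.6 and 82.7 CPM in the cKO mice (0.06 ± 0.114, SE, adjusted p = 0.77). The other tested cotransporters did not pass. Per length, Slc12a5 made up 69.5% ± 1.04 (SD) of the family in the controls and 65.5% ± 1.30 in the cKO mice. The family's sum was 126 ± 2.4 CPM per kb in the controls and 107 ± 3.0 in the cKO mice, with no overlap. Of the 8 tested regulators, which are kinases of the WNK cascade, their scaffold proteins Cab39 and Cab39l, and Neto2, only Neto2 passed both cut-offs. That is 12.5%, beside 13.7% of all genes tested. Neto2, an auxiliary subunit of kainate receptors that also binds KCC2, had 69.7, 60.9 and 60.3 CPM in the controls and 52.4, 40.5 and 49.5 CPM in the cKO mice (−0.43 ± 0.103, adjusted p = 0.021).

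**Figure D4:**
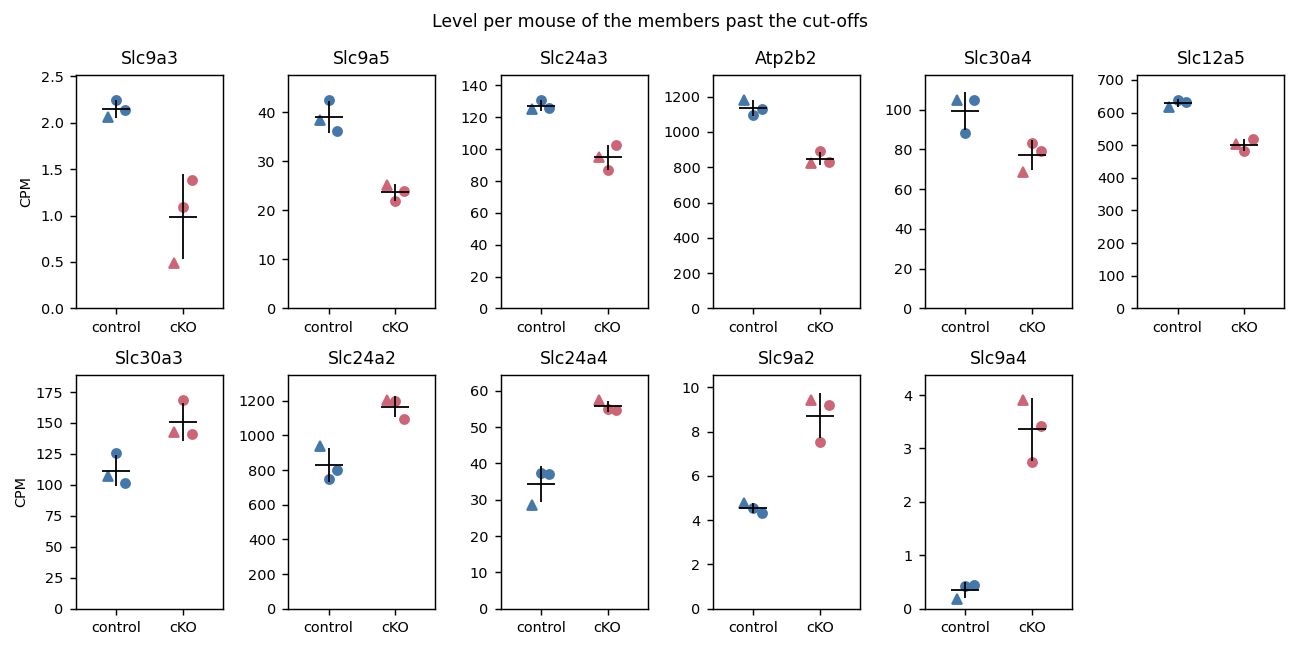
CPM per mouse of 11 members past the cut-offs, from the lowest log2 fold change to the highest, each on its own axis from 0. Triangles are the 14-week-old mice, circles the 12-week-old mice, and black lines the mean ± SD (n = 3). In every panel the 2 genotypes are apart, and Slc9a3 and Slc30a4 show the widest spread for their difference.

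Of the 9 tested NHE exchangers 4 passed, beside 13.7% of all genes tested, in both directions and mostly among low genes. Slc9a4 (NHE4), best known from the acid-secreting cells of the stomach and also described in hippocampus, was nearly unread in the controls, with 6, 21 and 23 reads. The cKO mice had 128, 53 and 185 reads. In CPM this was 0.176, 0.425 and 0.446 against 3.91, 2.74 and 3.42. Every control was under the limit of 0.5 CPM, so Slc9a4 was tested only through the cKO mice, where it is high. The genotypes did not overlap, and the log2 fold change was 2.99 ± 0.287 (SE, adjusted p = 1.4e-04). The size depends on the pseudocount, since the control level is low, and it ran from 1.69 to 3.29 over the 18 alternatives run for single genes, in each of which it passed. On the deposited RPKM as they stand, 0 members passed. Slc9a2 (NHE2), also mostly of epithelia, had 4.76, 4.56 and 4.35 CPM in the controls and 9.44, 7.55 and 9.20 CPM in the cKO mice (0.92 ± 0.124, adjusted p = 9.4e-04).

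Both genes that rose are neighbours. In the mm9 annotation Slc9a4 is at chr1:40637072-40687576 and Slc9a2 at chr1:40738557-40825730, on the plus strand and 51.0 kb apart with no protein-coding gene between them. The genes around the pair were looked up after these values had been seen. Mfsd9, the next on one side, had 4.79, 4.94 and 5.01 CPM in the controls and 4.31, 6.05 and 4.75 CPM in the cKO mice (0.02, adjusted p = 0.95). Il18rap and Il18r1 on the other side, and Tmem182 beyond Mfsd9, were too low to be tested, with at most 0.825 CPM in any mouse.

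Slc9a5 (NHE5), an exchanger of neurons and their recycling endosomes, fell. It had 38.5, 42.5 and 36.1 CPM in the controls and 25.1, 21.8 and 23.96 CPM in the cKO mice, with no overlap (−0.72 ± 0.087, SE, adjusted p = 4.9e-04), a fall of 39.3%. Slc9a3 (NHE3), known from kidney and gut, was low throughout, at 2.06, 2.25 and 2.13 CPM in the controls and 0.489, 1.09 and 1.39 CPM in the cKO mice. The cKO mice had 16, 21 and 75 reads. In cKO replicate 1 it was under the limit of 0.5 CPM, so Slc9a3 was tested only through the controls, where it is high. Its log2 fold change of −1.15 ± 0.311 passed (adjusted p = 0.034), but not when any 1 control was left out. Slc9a9 (NHE9) overlapped between genotypes (0.01, adjusted p = 0.97).

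None of the 7 tested bicarbonate transporters passed. Slc4a10, a sodium-driven bicarbonate importer of neurons, had 286, 281 and 298 CPM in the controls and 318, 330 and 343 CPM in the cKO mice. The genotypes did not overlap, and the adjusted p was 0.042 at a log2 fold change of 0.19, within the limit. Slc4a4 (NBCe1), which astrocytes carry, had 177, 178 and 171 CPM in the controls and 183, 191 and 192 CPM in the cKO mice and did not pass (0.11 ± 0.051, SE, adjusted p = 0.21).

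Of the pH partners, the carbonic anhydrases and the regulators of NHE exchangers, 19 of 24 were tested. Of these 4 fell and 2 rose, together 31.6%. Of all genes tested 13.7% passed, 7.77% falling and 5.88% rising. Car4, an enzyme on the outer face of the membrane, had 49.0, 65.3 and 49.8 CPM in the controls and 24.6, 21.4 and 28.6 CPM in the cKO mice (−1.13, adjusted p = 4.2e-04). Car10, a carbonic anhydrase-like protein without the enzyme activity, had 183, 198 and 183 CPM in the controls and 82.9, 105 and 94.5 CPM in the cKO mice (adjusted p = 6.4e-05). Car8, likewise inactive, fell (−0.68), as did the barely expressed Car3 (−1.13). Tesc, a calcium-binding protein that regulates proton exchange, rose from 37.6, 44.4 and 34.7 CPM to 73.5, 76.0 and 66.9 CPM (0.90, adjusted p = 2.4e-04), and Car15 also rose (0.46).

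Of the other genes of calcium stores and pumps, 22 of 23 were tested. Of these 2 fell and 2 rose, together 18.2%, beside 13.7% of all genes tested. Ryr1, a calcium release channel, rose from 21.8, 24.7 and 21.1 CPM in the controls to 81.1, 89.6 and 96.6 CPM in the cKO mice (1.98 ± 0.087, SE, adjusted p = 2.1e-06). Orai2, a store-operated calcium channel, rose as well (0.78, adjusted p = 6.4e-05). Stim1, the sensor that opens such channels, fell (−0.36, adjusted p = 0.0084), and so did Atp2c2, a calcium pump of the secretory pathway with under 1 CPM in every mouse (−1.12). Every cKO mouse had Atp2c2 under the limit of 0.5 CPM, so it was tested only through the controls, where it is high. The proton pumps and other P-type ATPases, 9 of 13 tested, gave no call, with 3 at an unadjusted p under 0.05 by limma (4 with voom weights). All partner lists together had 80 tested genes, of which 7 fell and 4 rose (13.8%, beside 13.7% of all genes tested).

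The zinc exporters gave 1 call each way among 8 tested, which is 25%, beside 13.7% of all genes tested. Slc30a3 (ZnT3) had 107, 125 and 102 CPM in the controls and 143, 169 and 141 CPM in the cKO mice. The genotypes did not overlap (0.44 ± 0.095, SE, adjusted p = 0.012), and ZnT3 was the leading exporter per length in both, at 53.3 CPM per kb in the controls and 72.2 in the cKO mice. Its share of the exporters' summed level per kb was 37.8%, 42.6% and 37.0% in the controls and 48.0%, 50.3% and 45.1% in the cKO mice, with no overlap between the genotypes. Slc30a4 (ZnT4), of endosomes and lysosomes, had 105, 88.0 and 105 CPM in the controls and 68.7, 83.2 and 79.3 CPM in the cKO mice (−0.36 ± 0.093, adjusted p = 0.027), with a gap between the genotypes smaller than the spread within either. Without control replicate 1, control replicate 3 or cKO replicate 1 it did not pass. Slc30a4 shares 130 exon bases with the transcript 4930417H01Rik on the opposite strand, and the strand setting of the counting was not given in the sources used here. Slc30a1 (ZnT1), the exporter at the cell surface, had 28.5, 31.9 and 27.8 CPM in the controls and 31.4, 34.4 and 35.5 CPM in the cKO mice (0.20, adjusted p = 0.15).

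Of the 12 tested ZIP importers none passed. Slc39a10 (ZIP10), the leading one per length, had 359, 350 and 314 CPM in the controls and 339, 311 and 368 CPM in the cKO mice, which overlapped (−0.01 ± 0.077, SE). Slc39a6 (ZIP6), its closest relative, came nearest, at 34.4, 38.0 and 34.1 CPM in the controls and 29.4, 26.3 and 30.9 CPM in the cKO mice, with an adjusted p of 0.038 and a log2 fold change of −0.299, just inside the limit. Slc39a12, a brain importer, and Slc39a8, which also carries manganese, gave −0.09 and 0.14. The 13 genes for zinc buffering and vesicular zinc that were tested held no call past the cut-offs, with 2 at an adjusted and 3 at an unadjusted p under 0.05 by limma, and log2 fold changes from −0.45 to 0.26.

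The remaining members fell under the limit for testing. They were 13 in all, 12 with a read in some mouse, and none was above 0.794 CPM in any mouse. They include the kidney cotransporters Slc12a1 and Slc12a3, the red cell anion exchanger Slc4a1 and the muscle pump Atp2a1.

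At both ages the differences pointed the same way for all 13 members that passed. Since the genotypes overlapped in none of the 13, this was fixed in advance and adds no support. At 14 weeks there was 1 mouse a genotype, with no replicate. Slc12a5 had a log2 ratio of −0.29 at 14 weeks and −0.35 at 12 weeks. Slc24a2 had 0.36 and 0.57, Slc24a4 1.00 and 0.56, and Atp2b2 −0.52 and −0.37. The gap between the ages was wider for Slc9a4, at 3.86 and 2.56, and for Slc9a3, at −1.87 and −0.79. Slc30a4 had −0.61 and −0.24. In the 12-week-old mice alone, 2 against 2, 10 of the 13 passed, and Slc9a3, Slc30a3 and Slc30a4 did not.

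Several cell type markers moved with genotype, and their part in the results above was not tested. Of all genes tested 13.7% passed, 7.77% falling and 5.88% rising. The share that passed was 65% for pyramidal neurons, 35% for oligodendrocytes, and 25% each for astrocytes and interneurons. It was 66.7% for dentate gyrus and hippocampus, 20% for striatum, 27.3% for thalamus and 25% for choroid plexus and ependyma. Of 20 genes of oligodendrocytes 7 rose and none fell, with a summed level of 3780 to 6088 CPM in the controls and 6010 to 7698 CPM in the cKO mice. Of 20 genes of pyramidal neurons 8 fell and 5 rose, the upper-layer genes Cux2 (−1.74) and Rasgrf2 (−1.96) among the former and Neurod6 (1.34) among the latter, while the list's sum ran from 7203 to 8425 CPM in the controls and from 7104 to 8110 CPM in the cKO mice. Of 20 genes of astrocytes 4 rose and 1 fell (5401 to 5730 CPM and 4893 to 5163 CPM), and of 20 genes of interneurons 4 rose and 1 fell (1220 to 1315 CPM and 1383 to 1545 CPM). The 20 microglial and 20 endothelial genes gave no call, with 4 and 2 at an unadjusted p under 0.05 by limma (3 and 2 with voom weights), and summed levels of 629 to 959 and 554 to 606 CPM in the controls and of 491 to 740 and 545 to 601 CPM in the cKO mice. Of 12 genes of dentate gyrus and hippocampus, some of which, like Calb1 and Wfs1, cortex also expresses, 4 rose, among them Spink8 (3.86), Tdo2 (3.36) and Fibcd1 (2.27), and 4 fell, with a summed level of 459 to 497 CPM in the controls and 325 to 500 CPM in the cKO mice. Of 10 tested striatal genes Drd1 and Penk rose, of 11 thalamic genes 1 rose and 2 fell, and of 8 genes of choroid plexus and ependyma 1 rose and 1 fell. The sums of these lists were 294 to 385, 1003 to 1097 and 14.4 to 40.96 CPM in the controls and 307 to 615, 753 to 902 and 19.1 to 26.3 CPM in the cKO mice. In none of the marker lists was a gene at 0 in every mouse.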

How the data were processed

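PolyA RNA of somatosensory cortex was measured in 3 mice of each genotype. Per the study's methods and the labels, the authors made directional polyA libraries, aligned reads to mm9 with TopHat and Bowtie and counted genes with HTSeq, and the deposited values are RPKM, one table per mouse, made by the authors from these counts. The members, lists and named genes were chosen with earlier results of these data known. Named are the members past the cut-offs, the highest per length of each family, and a fixed set of well-known members, beside partner and marker genes past the cut-offs. Slc39a6 and members below the limit for testing were named after their values were seen. The values of some members are not reported here, though the counts over all members include them.

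The deposited values turned out to be whole reads divided by lengths from a short list that repeats down the genes. The order of the genes is shared by the mice, and each mouse has a list of its own (65 to 296 lengths). Finding these steps gave the sample total and a whole read count for 99.97 to 100% of the values above 0, and the counts summed to 99.99% of each total. Rows without a gene name (92, with 0.0574 to 0.0853% of the reads) were left out of the tests. CPM are recovered reads over the sample total, so that precision follows each mouse's depth. log2(CPM + 0.1) was compared with limma 3.58.1 in R 4.3.3 (lmFit, eBayes with a variance trend), two-sided, without covariates, for genes above 0.5 CPM in all mice of either genotype. With 3 mice against 3 an exact permutation test of a single gene cannot go below p = 0.100, so none is given. Python 3.11.15 served for the tables (pandas 2.3.3, numpy 2.4.6, scipy 1.17.1) and for the plots (matplotlib 3.10.9). Exon lengths and coordinates are from the gencode annotation of NCBIM37 (mm9), in which all 75 members were found.

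Both steps were tested on simulated data. All 6 totals were found again, and 100% of the counts given were right. With 200 of 14630 genes changed between the genotypes, 97% of these passed and 10 unchanged genes did. The 97% holds only for changes of the sizes and levels that were simulated. It was not worked out separately for changes near the limit of 0.3 or for genes with few reads. It therefore does not show how often changes like those of Slc12a5, Slc30a4 or Slc9a3 would be found. The alternatives were other pseudocounts, filters, scaling, variance models and cut-offs, the replicate number as a block, an age term, the 12-week-old mice alone, leaving out each mouse, and the deposited RPKM as they stand. Precision weights (voom) were added after seeing the data.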

Additional observations from a re-analysis of the deposited data

How the results depend on the processing

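Of the 13 members that passed, 9 did so in each of the 18 alternatives run for single genes. Among these 9 were Atp2b2, Slc24a2, Slc24a3, Slc24a4, Slc9a2, Slc9a4 and Slc9a5. None of the 13 changed sign in any alternative, which their lack of overlap fixed in advance wherever mice were only left out. The other called members were lost in 1 (Slc12a5, Slc30a3), 5 (Slc9a3) or 6 (Slc30a4) of the 18. An adjusted p under 0.05 at any size cannot lose a call, and requiring a count in every mouse repeated the main fit, so these alternatives are no check. The deposited RPKM and the cut-off of 1 were run for counts of genes only and are not among the 18. With each mouse left out in turn, 1657 to 1869 genes passed, 5 to 9 members lower and 6 to 7 higher. Members whose log2 fold change is near 0 changed sign: Slc39a10 with the 12-week-old mice alone (0.031), and Slc9a9 with these mice (−0.101) and with voom weights (−0.0146). Without 1 mouse the ranges were −0.0661 to 0.0553 for Slc39a10, −0.0852 to 0.119 for Slc9a9, −0.0450 to 0.164 for Slc12a2 and −1.08 to 0.0928 for Slc8a2, the last value being that without cKO replicate 3. On the deposited RPKM, where lengths differ between mice, 14 of 7974 genes passed and 0 of 46 members lower or higher, with 0 members even at an unadjusted p under 0.05 by limma. With an adjusted p under 0.05 at any size, 19 of the 62 tested members passed, 10 of them higher and the rest lower, beside 2381 of 14625 genes (16.3%). With an absolute log2 fold change above 1, 472 genes, 2 members lower (Slc9a3 among them) and 1 higher (Slc9a4) remained past the cut-offs by that construction. The replicate numbers were not used to pair the mice. The deviations of same-numbered mice from their genotype's mean correlated at −0.18, −0.11 and −0.08 over genes. With so few mice these values cannot show whether same-numbered mice shared a litter, and replicate 1 of each genotype shared an age. With the number as a block 1695 genes, 6 members lower and 6 higher passed, Slc30a4 being lost. No result was moved over 1.5 times by scaling with median-of-ratios factors (2020 genes, 8 members lower and 6 higher). Depth limits the low genes, of which Slc9a3 and Slc9a4 rest on as few as 16 and 6 reads.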
